A study of Mus musculus with 6 samples.

Results

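The non-classical major histocompatibility complex (MHC) class I genes of the mouse H2 complex were examined in alveolar type 2 (AT2) cells at 24 m and at 3 m of age. The members were the 10 rows of the count table with the symbols *H2-Q1*, *H2-Q2*, *H2-Q4*, *H2-Q5*, *H2-Q6*, *H2-Q7*, *H2-Q10*, *H2-T22*, *H2-T23* and *H2-M3*, out of 24224 genes in all. They were chosen with their 24 m and 3 m values already known, so their age differences are given as a description of these libraries. The 24 m group was 3 libraries of AT2 cells from naturally aged C57BL/6J mice at 24 m (written C57/6J in the sample labels), and the 3 m group was 3 libraries from mice of the same strain at 3 m, with no other treatment named for either age. The cells had been sorted from digested lungs as positive for CD326 and MHCII and negative for CD45 and CD31. Each library came from lung cells pooled over several mice, so the spread between libraries is a spread between pools. In bulk RNA, more cells of a type and more RNA per cell cannot be told apart.

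Classical class I proteins, encoded here by *H2-K1* and *H2-D1*, sit on almost every nucleated cell with the light chain beta-2 microglobulin and show peptides to CD8 T cells. The non-classical genes lie in the same complex on chromosome 17, vary less between individuals, and encode related proteins with narrower tasks, several of which are recognized by natural killer (NK) cells, gamma delta T cells or other unconventional lymphocytes. Both kinds are known as targets of interferons and of the class I transactivator Nlrc5, and AT2 cells are lung epithelial cells that also carry class II proteins.

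Promoter stretches of the members are shown as a description, and their relation to the age differences was not tested. RefSeq sequences for GRCm38.p6, from 250 bases before to 50 bases after each start, matched 8 of the 10 members, all but *H2-Q1* and *H2-Q5*. The stretches of 4 H2-Q promoters and the matching one of classical *H2-D1* share most of their letters after the run in capitals, which in this position is the kappa B part of the element known as enhancer A.
H2-Q7 (chr17:35439012-35439077, plus strand): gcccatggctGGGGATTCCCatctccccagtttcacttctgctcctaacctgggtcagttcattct
H2-Q6 (chr17:35424667-35424733, plus strand): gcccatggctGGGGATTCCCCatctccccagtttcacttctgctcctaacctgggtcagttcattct
H2-Q4 (chr17:35379433-35379499, plus strand): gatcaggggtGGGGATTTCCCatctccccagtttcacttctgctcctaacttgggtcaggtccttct
H2-Q10 (chr17:35469903-35469969, plus strand): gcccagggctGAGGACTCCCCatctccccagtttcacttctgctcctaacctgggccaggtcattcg
H2-D1 (chr17:35262913-35262979, plus strand): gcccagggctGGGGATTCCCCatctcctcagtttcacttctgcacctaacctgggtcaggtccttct

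Over the 46 bases after the capitals, the *H2-Q6* stretch had 0 differences from that of *H2-Q7*, the *H2-Q4* and *H2-Q10* stretches had 3 each, and the *H2-D1* stretch had 4. The letters GGGATTCCC, searched on both strands, were found in the promoters of *H2-Q6* and *H2-Q7* alone among the 8 members, and in 0.414% of the promoters of 27025 genes. They were also found for *H2-D1* and *H2-K1*. The *H2-Q4* and *H2-Q10* capitals differ from these letters, which says only that the exact run is not in that window. Class I promoters are known to carry an interferon response element right after enhancer A, and the letters tttcactt stand there in all 5 printed stretches. The H2-T stretches show matches to a stricter pattern of the interferon-stimulated response element, with a GAAA repeat at both ends, which was searched on both strands. The match is in capitals as it reads along the strand of the gene, with 20 or more bases on each side.
H2-T23 (chr17:36032786-36032845, minus strand): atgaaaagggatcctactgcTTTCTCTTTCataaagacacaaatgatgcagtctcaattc
H2-T22 (chr17:36042894-36042953, minus strand): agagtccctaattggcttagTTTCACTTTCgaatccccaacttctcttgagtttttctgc

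This strict pattern matched in *H2-T22* and *H2-T23* alone among the 8 members, and in 3.99% of all promoters. The tttcactt run of the H2-Q stretches ends in other letters and was not counted by it, which does not say that those promoters lack the element. The *H2-M3* promoter held the core of the X2 box, TGACGC, and 19 bases later the Y box read on the other strand, ATTGG. The same 19 bases lay between these letters in *H2-K1* and *H2-D1*. Both boxes are parts of the module that class I and class II promoters use for the factors RFX, CREB or ATF, and NF-Y, and both are in capitals. Another CCAAT lay 4 bases after the X2 core and is left in lower case.
H2-M3 (chr17:37270172-37270218, plus strand): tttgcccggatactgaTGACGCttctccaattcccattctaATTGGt

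The X2 core was present in *H2-M3* and *H2-Q4* and in 8.37% of all promoters. In *H2-Q4* it lay after the start, so 1 member held it when 250 bases before the start were searched alone. The Y box letters were present in 7 of the 8 members, all but *H2-Q10*, and in 41.1% of all promoters. The gamma activated site TTCNNNGAA was found in *H2-M3* alone and in 9.55% of all promoters. A match in these letters is a description of the sequence and not a bound site.

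The 6 libraries held 28827930 to 32394985 counts at 24 m and 30108093 to 30840965 counts at 3 m. Genes with a count numbered 17531 to 21836 at 24 m and 13430 to 17645 at 3 m, and 3 m replicate 2 had the fewest. Levels are given as CPM, counts scaled to each library's normalized total. Surfactant protein C, *Sftpc*, the defining AT2 transcript, averaged 87054 ± 4357 CPM at 24 m, against 94097 ± 43930 CPM at 3 m (SD, n = 3 each). *Sftpc* belongs to a list of 10 AT2 markers with a median fitted log2 fold change of -0.12. Of these 10, 2 had a fold change above 0. The ages did not overlap in 4 markers that were lower at 24 m and in 1 that was higher. Among all 14899 genes tested, 806 were lower at 24 m without overlap and 1451 were higher. At an unadjusted edgeR p under 0.05, 0 of the 10 markers differed. The sort marker *Epcam*, which encodes CD326, averaged 168 ± 11.5 CPM at 24 m, against 163 ± 37.5 CPM at 3 m. *Pecam1*, which encodes CD31, was at 5.03, 4.12 and 0.773 CPM at 24 m, against 2.41, 2.71 and 0.253 CPM at 3 m. *Ptprc*, which encodes CD45, was at 3.44, 9.59 and 2.38 CPM at 24 m, against 0, 0 and 0.190 CPM at 3 m. The full list of 7 sort markers also held *H2-Aa*, *H2-Ab1*, *H2-Eb1* and *Cd74* for MHCII. Summed, the 7 were at 5810, 7133 and 5380 CPM at 24 m, against 6558, 2780 and 4250 CPM at 3 m. The ages overlapped in this sum. Of the 7, 4 had every 24 m library above every 3 m library, against 9.74% of the genes that passed that filter. *Ptprc*, near 0 at 3 m, passed the filter through its 24 m libraries. All 7 had a fitted log2 fold change above 0, as did 53.8% of all genes tested, with a median of 0.85. At an unadjusted edgeR p under 0.05, 3 of the 7 were higher at 24 m, against 3.56% of all genes tested. The values of a gene are listed from replicate 1 to replicate 3 throughout.

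The largest age gaps among the members belonged to 3 adjacent genes of the H2-Q cluster, *H2-Q5*, *H2-Q6* and *H2-Q7*, which were detected at both ages and far lower at 3 m. *H2-Q5*, which the GENCODE vM21 annotation lists as a polymorphic pseudogene, had 1047, 1070 and 743 counts at 24 m, against 57, 82 and 63 counts at 3 m. This corresponded to 35.3, 35.9 and 22.1 CPM at 24 m and to 1.96, 2.92 and 1.99 CPM at 3 m. The lowest 24 m library was thus 7.57-fold above the highest 3 m library, and the 3 m libraries lay close together. The means were 31.1 ± 7.80 CPM at 24 m, against 2.29 ± 0.545 CPM at 3 m (SD, n = 3 each), a ratio of 13.6.

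*H2-Q6* and *H2-Q7* encode Qa-2, a class I protein anchored in the membrane through a lipid. *H2-Q6* had 293, 420 and 385 counts at 24 m, against 24, 1 and 21 counts at 3 m. *H2-Q7* had 874, 1006 and 591 counts at 24 m, against 29, 10 and 107 counts at 3 m. In both genes every 24 m library was far above every 3 m library, and the 3 m libraries differed widely among themselves. In CPM, *H2-Q6* averaged 11.8 ± 2.12 at 24 m, against 0.509 ± 0.418 at 3 m, a ratio of 23.2, and its lowest 24 m library was 11.98-fold above its highest 3 m library. *H2-Q7* averaged 26.9 ± 8.37 CPM at 24 m, against 1.58 ± 1.60 CPM at 3 m, a ratio of 17.0, with 5.19-fold between the nearest libraries of the ages. The lowest 3 m library was replicate 2 for both genes, whereas for *H2-Q5* that library was the highest of its age.

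**Figure D1:**
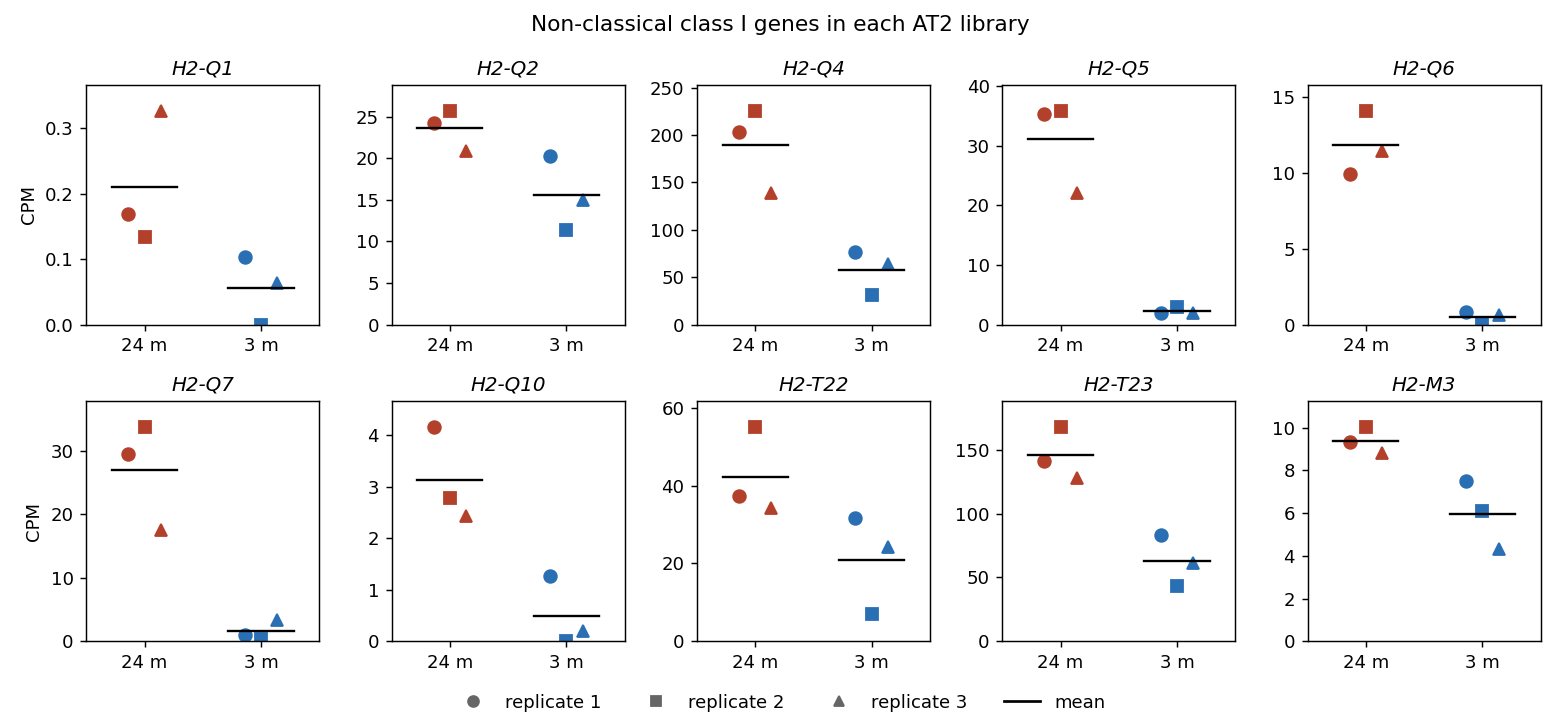
Each panel plots the CPM of a member in the 3 libraries of 24 m (left, red) and the 3 libraries of 3 m (right, blue) on its own linear axis that starts at 0, with a symbol for each replicate number and a line for the mean. In all 10 panels the 24 m points lie above the 3 m points, and the gap is widest relative to the 3 m level for *H2-Q5*, *H2-Q6* and *H2-Q7*.

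Reads of such similar genes may be split between them by the counting. Among all 150-base windows of the GENCODE vM21 transcripts, 5.99% of those of *H2-Q6* also occurred in *H2-Q7*, and 3.86% of those of *H2-Q5* occurred in another gene, most of them in *H2-Q7*. The share was 5.90% for *H2-Q7*, 3.43% for *H2-Q10*, 2.69% for *H2-Q1* and 2.56% for *H2-Q2*. For *H2-Q4* and *H2-M3* it was 0%, and for *H2-T22* and *H2-T23* it was 0.384% and 0.331%. Most windows of each member were therefore its own, and windows with a few mismatches were not counted as shared. Adding the reads of the 7 H2-Q members gave 306, 338 and 214 CPM at 24 m, against 102, 46.4 and 85.1 CPM at 3 m. These sums do not depend on how counted reads were split between the 7 genes. Any reads dropped for matching several genes would be missing from them. The fitted log2 fold change of the H2-Q sum was 1.88 (SE 0.34).

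*H2-Q4*, which encodes the class I protein Qb-1, had the highest mean level per gene length of the members at either age. It was at 203, 226 and 139 CPM at 24 m, against 76.6, 31.8 and 63.8 CPM at 3 m. The ages did not overlap, and the lowest 24 m library was 1.82-fold above the highest 3 m library. Its means were 189 ± 44.9 CPM at 24 m, against 57.4 ± 23.1 CPM at 3 m (SD, n = 3 each), a ratio of 3.30.

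*H2-Q2* differed far less. It was at 24.2, 25.7 and 20.9 CPM at 24 m, against 20.3, 11.3 and 15.0 CPM at 3 m, so that the lowest 24 m library and the highest 3 m library almost met. *H2-Q10*, which encodes a class I protein known to be secreted by the liver, had 123, 83 and 82 counts at 24 m, against 37, 0 and 6 counts at 3 m. It was low in all libraries, with means of 3.12 ± 0.907 CPM at 24 m, against 0.488 ± 0.687 CPM at 3 m. *H2-Q1* had 5, 4 and 11 counts at 24 m, against 3, 0 and 2 counts at 3 m, too few for a test of its age difference at this depth.

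The H2-T genes were abundant at both ages. *H2-T23* encodes Qa-1, which shows a leader peptide of other class I proteins to the CD94 and NKG2A receptor of NK cells and T cells. It was at 141, 168 and 128 CPM at 24 m, against 83.3, 43.6 and 61.4 CPM at 3 m, with 1.54-fold between the nearest libraries of the ages. Its means were 146 ± 20.2 CPM at 24 m, against 62.8 ± 19.9 CPM at 3 m, a ratio of 2.32. *H2-T22*, a ligand of some gamma delta T cell receptors, was at 37.3, 55.0 and 34.3 CPM at 24 m, against 31.6, 7.09 and 24.2 CPM at 3 m. Here the ages were nearly adjacent, and 3 m replicate 2 lay far below the other libraries of its age.

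*H2-M3* encodes a protein that shows peptides with an N-formyl group, as bacteria and mitochondria make them. It was at 9.32, 10.02 and 8.81 CPM at 24 m, against 7.502, 6.09 and 4.30 CPM at 3 m. The 24 m libraries of this gene were the most alike of any member on a log scale, and the ages did not overlap. The ratios of the means were 1.57 for *H2-M3*, 1.52 for *H2-Q2* and 2.01 for *H2-T22*.

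All 10 members had every 24 m library above every 3 m library. Over the 14899 genes that passed the filter on low counts, 9.74% had this order and 15.1% had no overlap in either direction. Of the 10 members, 9 passed that filter. *H2-Q6*, *H2-Q7* and *H2-Q10* passed it through their 24 m libraries, *H2-Q7* because 3 m replicate 2, with 10 counts, lay just under the limit. The members were chosen from this contrast, so nothing follows from the comparison of these shares. All 9 members tested had a fitted log2 fold change above 0, as did 53.8% of all genes tested, and 7 were above 1, against 11.9% of all. The median fitted log2 fold change was 1.72 over the 9 members tested and 0.05 over all genes tested.

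With edgeR's quasi-likelihood test and Benjamini-Hochberg adjustment over all genes tested, 0 of the 9 members and 0 of the 14899 genes (0%) were called at an adjusted p under 0.05 with a log2 fold change above 1 in size. At an unadjusted p under 0.05 there were 5 members, all higher at 24 m, and 873 genes (5.86%), of which 531 were higher at 24 m (3.56% of genes tested), and limma-voom also called 0 genes. *H2-Q5* had the smallest p of all genes, with a log2 fold change of 3.76 (SE 0.37) and an adjusted p of 0.0800 by edgeR. The log2 fold changes were 4.52 (SE 0.90, adjusted p = 0.302) for *H2-Q6*, 4.08 (SE 0.77, adjusted p = 0.246) for *H2-Q7*, 1.72 (SE 0.37, adjusted p = 0.309) for *H2-Q4* and 1.22 (SE 0.29, adjusted p = 0.414) for *H2-T23*. The other 4 members tested had an adjusted p of 0.828 each by edgeR. Their log2 fold changes were 2.67 (SE 1.44) for *H2-Q10*, 1.01 (SE 0.50) for *H2-T22*, 0.65 (SE 0.40) for *H2-M3* and 0.60 (SE 0.31) for *H2-Q2*.

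**Figure D2:**
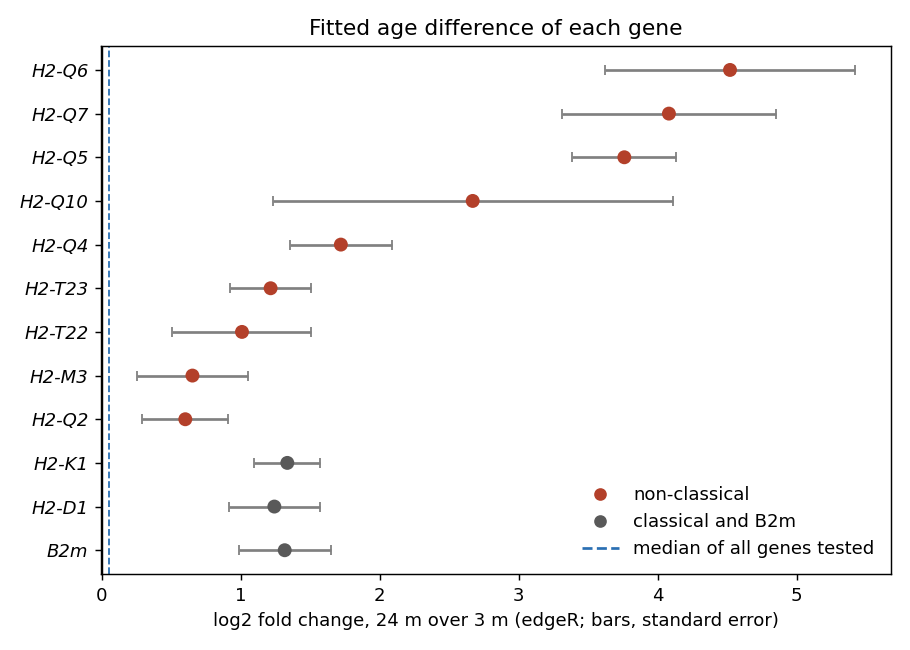
The plot gives the edgeR log2 fold change of 24 m over 3 m for the 9 members tested (red) and for *H2-K1*, *H2-D1* and *B2m* (grey), with bars of 1 standard error, and a dashed line at the median of all genes tested, 0.05. *H2-Q5*, *H2-Q6* and *H2-Q7* lie between 3.76 and 4.52, the widest bar belongs to *H2-Q10*, and the classical genes and *B2m* lie between 1.24 and 1.34.

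The choice of the test decided the calls. DESeq2, with the same threshold, called *H2-Q5* (adjusted p = 7.51e-17), *H2-Q7* (6.02e-06), *H2-Q6* (9.69e-06), *H2-Q4* (0.00134) and *H2-T23* (0.0138) as higher at 24 m, beside 205 genes called in all (1.38%), 188 of them higher at 24 m (1.26%). DESeq2's calls of *H2-Q5*, *H2-Q6* and *H2-Q7* were made with any of the 6 libraries left out. *H2-Q4* lost its DESeq2 call without 24 m replicate 1 (adjusted p = 0.0971) or 24 m replicate 2 (0.178). *H2-T23* lost it without 24 m replicate 1 (0.269), replicate 2 (0.596) or replicate 3 (0.0703), and *H2-Q10* gained it without 3 m replicate 1 (0.0111).

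For edgeR, the filter on low counts and 3 m replicate 2 mattered. With no filter, edgeR called the same 5 members as DESeq2, beside 0.739% of all genes called higher at 24 m. Without 3 m replicate 2, edgeR called 4 members, *H2-Q5* (adjusted p = 0.00120), *H2-Q6* (0.00390), *H2-Q7* (0.0126) and *H2-Q4* (0.0215), beside 82 genes higher at 24 m in all (0.506%). The log2 fold changes then came to 3.97, 3.98, 3.61 and 1.43, close to or below those with all libraries. Within its age that library was the lowest for 8 of the 10 members, whereas 3 m replicate 1 was the highest for 8. At 24 m, replicate 2 was the highest for 8 members and replicate 3 was the lowest for 8.

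**Figure D3:**
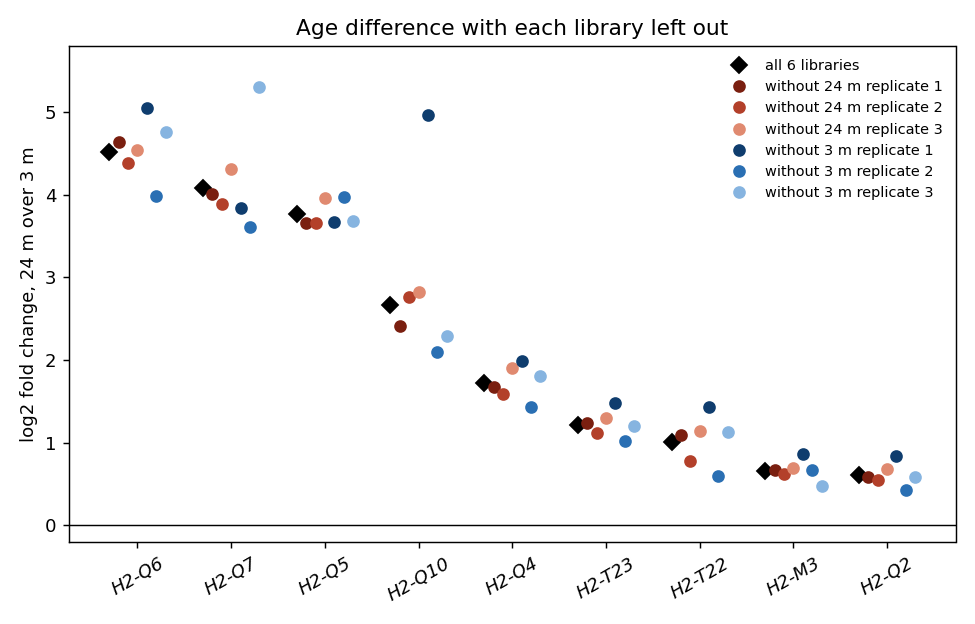
For each of the 9 members tested, the plot shows the edgeR log2 fold change of 24 m over 3 m with all 6 libraries (black) and with each library left out in turn, in red for 24 m libraries and in blue for 3 m libraries. All points are above 0, *H2-Q5* stays within 3.66 to 3.97, *H2-Q10* reaches 4.96 without 3 m replicate 1, and *H2-Q7* reaches 5.31 without 3 m replicate 3.

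*H2-Q10* rested on few counts, and its fold change moved the most. It was 2.67 with all libraries and 4.96 without 3 m replicate 1, the library that held 37 of its 43 counts at 3 m. The log2 fold change of *H2-T22* was 0.60 without 3 m replicate 2 and 1.01 with all libraries. The sum of all 10 members was 494, 571 and 385 CPM at 24 m, against 224, 103 and 175 CPM at 3 m, and its log2 fold change of 1.53 (SE 0.33) ranged from 1.28 to 1.80 with a library left out.

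Levels of different genes can be set side by side per gene length, in fragments per kilobase of gene scaled to depth (FPKM). At 24 m, *H2-Q4* had the highest mean, 74.9 ± 17.2 FPKM, followed by *H2-T23* with 51.8 ± 6.73 FPKM, and the libraries of these neighbours overlapped. Next came *H2-Q5* (20.1 FPKM), *H2-T22* (12.7 FPKM) and *H2-Q2* (11.1 FPKM), where each neighbour overlapped with the next. Below a gap lay *H2-M3* (6.71 FPKM), *H2-Q7* (6.48 FPKM) and *H2-Q6* (5.82 FPKM), which overlapped in turn. *H2-Q10* (0.739 FPKM) and *H2-Q1* (0.0757 FPKM) stood apart from these and from each other.

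The order at 3 m was different in the middle. *H2-Q4* and *H2-T23* were again the highest, with 21.6 ± 9.003 and 21.1 ± 6.69 FPKM, and overlapped. *H2-Q2* (6.93 FPKM), *H2-T22* (6.03 FPKM) and *H2-M3* (3.99 FPKM) followed and overlapped with their neighbours, and *H2-Q5* (1.39 FPKM) stood below all 3 of them. *H2-Q7* (0.377 FPKM), *H2-Q6* (0.241 FPKM), *H2-Q10* (0.107 FPKM) and *H2-Q1* (0.0191 FPKM) were the lowest and overlapped. Thus *H2-Q5* ranked 3 at 24 m and 6 at 3 m by its mean.

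**Figure D4:**
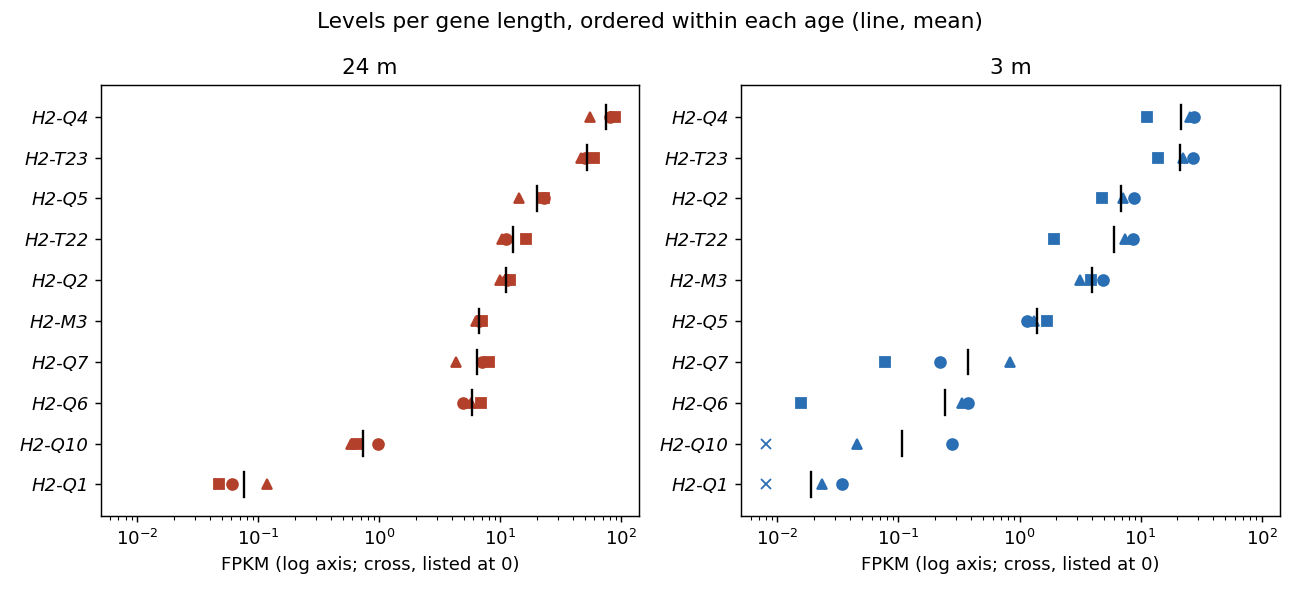
Each row shows a member's FPKM on a log axis in the 24 m libraries (left panel) and in the 3 m libraries (right panel), with a vertical line at the mean and a cross for a library listed at 0. The 24 m means run from 0.0757 FPKM for *H2-Q1* to 74.9 FPKM for *H2-Q4*, and *H2-Q5* stands in row 3 at 24 m and in row 6 at 3 m.

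The members also differed in how much of the class I message they made up. The 10 members took 10.6, 10.8 and 10.4% of the counts of the members, *H2-K1* and *H2-D1* together at 24 m, against 10.1, 7.32 and 9.41% at 3 m, so the non-classical share differed little next to the level itself. Within the members the make-up differed more. *H2-Q5*, *H2-Q6* and *H2-Q7* together took 15.1, 14.7 and 13.3% of the members' counts at 24 m, against 1.69, 3.21 and 3.45% at 3 m. The H2-T genes took 36.2, 39.0 and 42.2% at 24 m, against 51.2, 49.1 and 48.9% at 3 m. *H2-Q5* alone had 17.4, 15.9 and 15.9 counts per 100 counts of *H2-Q4* at 24 m, against 2.56, 9.19 and 3.13 at 3 m. A ratio of this kind between neighbouring genes does not depend on the scaling of the libraries, and the ages did not overlap in it.

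**Figure D5:**
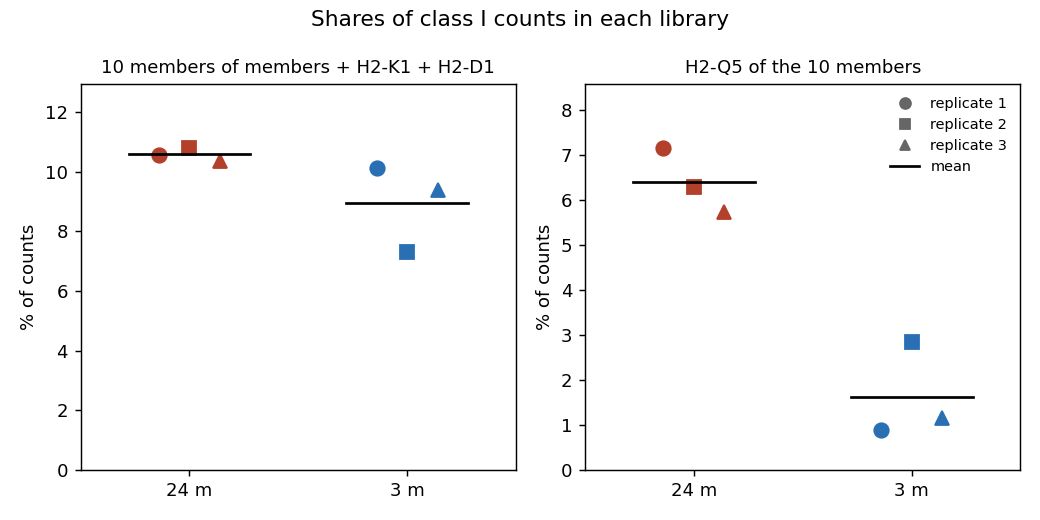
The left panel plots the percent of class I counts (10 members, *H2-K1* and *H2-D1*) that came from the 10 members, and the right panel the percent of the members' counts that came from *H2-Q5*, for each 24 m library (red) and 3 m library (blue), with a line at the mean. The left shares are 10.4 to 10.8% at 24 m and 7.32 to 10.1% at 3 m, and the right shares are 5.74 to 7.16% at 24 m and 0.874 to 2.83% at 3 m.

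Among genes that are no members, the profile nearest to the members' summed CPM over the 6 libraries was that of *Irf1*, an interferon regulatory factor, at a root mean square distance of 0.13 on the centred log2 scale. *H2-D1* (0.15), the lysophospholipid transporter *Mfsd2a* (0.16), the cytosolic DNA sensing adaptor *Sting1* (0.18) and *Gm37352* (0.18) followed. Between members, the nearest profiles were *H2-Q2* and *H2-M3* (0.27), *H2-T23* and *H2-Q2* (0.32), and *H2-Q4* and *H2-T23* (0.33). *H2-T22* was nearest to *H2-Q4* (0.41), *H2-Q6* and *H2-Q7* were nearest to each other (0.80), and *H2-Q10* was nearest to *H2-Q6* (0.98). *H2-Q5* was far from every other member, its nearest being *H2-Q4* (1.13).

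The classical genes and the light chain were also higher at 24 m. *H2-K1* was at 2295, 2619 and 1843 CPM at 24 m, against 1002, 859 and 817 CPM at 3 m, with a log2 fold change of 1.34 (SE 0.24). *H2-D1* was at 1881, 2094 and 1484 CPM at 24 m, against 991, 447 and 868 CPM at 3 m (log2 fold change 1.24, SE 0.33). *B2m*, the beta-2 microglobulin gene, was at 543, 594 and 494 CPM at 24 m, against 204, 319 and 132 CPM at 3 m (log2 fold change 1.32, SE 0.33). Their edgeR adjusted p-values were 0.220, 0.536 and 0.456, and DESeq2 called all 3. A further 8 class I genes of the H2 complex were in the table, of which *H2-T10* alone could be tested, with a log2 fold change of 0.55 (SE 0.91). The other 7 had 2 to 80 counts summed over the 24 m libraries and at most 26 over the 3 m libraries.

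The machinery that loads peptides onto class I proteins differed little in its median, while single genes differed in both directions. Of 15 genes for peptide loading and the immunoproteasome, edgeR called 0 and DESeq2 called *B2m* alone, and their median log2 fold change was 0.06. The ages did not overlap in 5 of the 15 that were higher at 24 m and in 1 that was lower, *Canx*. Among all 14899 genes tested, 9.74% were higher at 24 m without overlap and 806 genes were lower. At an unadjusted edgeR p under 0.05, 3 of the 15 were higher at 24 m and 0 were lower. *Tap1*, a subunit of the peptide transporter, was at 49.3, 72.6 and 44.6 CPM at 24 m, against 32.4, 18.3 and 27.97 CPM at 3 m. *Psmb8*, an immunoproteasome subunit, was at 37.6, 51.4 and 32.6 CPM at 24 m, against 15.7, 5.41 and 22.97 CPM at 3 m. *Canx* was at 253, 282 and 296 CPM at 24 m, against 333, 554 and 343 CPM at 3 m (log2 fold change -0.56, SE 0.27). Of 20 class I promoter factors and interferon receptors, edgeR called 0 and DESeq2 called *Irf1* alone, with a median log2 fold change of 0.03. Of these 20, 4 had every 24 m library above every 3 m library, against 9.74% of all genes tested, and 1 had the reverse. At an unadjusted edgeR p under 0.05, 3 of the 20 were higher at 24 m (3.56% of all genes tested) and 0 were lower. *Irf1* averaged 79.0 ± 23.7 CPM at 24 m, against 26.3 ± 7.83 CPM at 3 m. *Nlrc5*, the class I transactivator, was at 12.8, 14.3 and 8.06 CPM at 24 m, against 1.93, 0 and 1.87 CPM at 3 m, with a log2 fold change of 3.21 (SE 1.15) that neither edgeR (adjusted p = 0.818) nor DESeq2 (0.131) called.

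Interferon response genes outside class I were a list of 20, of which 18 were tested. Their median log2 fold change was 2.17, and 12 had every 24 m library above every 3 m library, against 9.74% of all genes tested. Genes near 0 at 3 m, such as *Isg15*, passed the filter on low counts through their 24 m libraries. This favours a higher median and count, so nothing follows from the comparison with all genes. Summed, the 20 were at 184, 188 and 90.0 CPM at 24 m, against 73.0, 78.3 and 66.0 CPM at 3 m. edgeR called 0 (0% of all genes) and DESeq2 called 4 higher (1.26% of all genes) and 0 lower. Examples were the antiviral genes *Oasl2*, at 14.6, 23.5 and 6.31 CPM at 24 m against 2.00, 1.03 and 2.47 CPM at 3 m, and *Isg15*, at 3.27, 6.27 and 2.11 CPM at 24 m against 0.482, 0 and 0.127 CPM at 3 m. Of 9 class I like genes outside the H2 complex, 5 were tested, their median log2 fold change was 0.63 and neither tool called any. *Mr1*, which shows vitamin B metabolites to MAIT cells, had the smallest p of them and was at 4.69, 9.75 and 3.90 CPM at 24 m, against 0, 0 and 2.66 CPM at 3 m, with a log2 fold change of 2.78 (SE 1.70, edgeR adjusted p = 0.829). *Procr*, the protein C receptor, was at 1.42, 0.302 and 1.49 CPM at 24 m, against 0.516, 0 and 0.0316 CPM at 3 m, with ages that overlapped. *Fcgrt*, the neonatal Fc receptor, averaged 45.1 ± 6.64 CPM at 24 m, against 29.2 ± 13.96 CPM at 3 m, and *Hfe*, a regulator of iron uptake, averaged 22.2 ± 2.27 CPM at 24 m, against 29.8 ± 11.5 CPM at 3 m.

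Markers of other cells also differed between the ages. The 10 leukocyte markers summed to 30.3, 87.6 and 9.37 CPM at 24 m, against 0.688, 7.34 and 3.96 CPM at 3 m, and 3 of them (*Itgb2*, *Cd53* and *Tyrobp*) were at 0 in all 3 m libraries. DESeq2 called 4 of the 10 as higher, against 1.26% of all genes tested. Any marker at 0 in all 3 m libraries could pass the filter only through the 24 m libraries, so nothing follows from this comparison. Between the 24 m libraries this sum differed by 9.35-fold, the members' sum by 1.48-fold, *H2-Q7* by 1.92-fold, *H2-Q5* and *H2-Q4* by 1.62-fold each and *H2-Q6* by 1.42-fold. The leukocyte sum and the members' sum had the same order across the 24 m libraries, with replicate 2 the highest and replicate 3 the lowest. In 24 m replicate 3, the library with the lowest leukocyte sum at 24 m, *H2-Q6* was at 11.5 CPM and *H2-Q5* at 22.1 CPM, above every 3 m library. The leukocyte sum of that library, 9.37 CPM, was also above that of every 3 m library. Myeloid markers summed to 14.6 to 54.6 CPM at 24 m and to 3.06 to 10.7 CPM at 3 m, and B and plasma cell markers to 23.1 to 40.1 CPM at 24 m and to 8.44 to 25.2 CPM at 3 m. Airway markers summed to 611 to 1195 CPM at 24 m and to 277 to 734 CPM at 3 m. DESeq2 called 3 of these 5 as higher, against the same 1.26% of all genes tested. The 7 T and NK cell markers summed to 0.304 to 5.90 CPM at 24 m and to 0 to 1.11 CPM at 3 m, and the lymphocyte receptors that bind class I proteins to 1.31 to 9.25 CPM at 24 m and to 0 to 0.723 CPM at 3 m. The part of these cells in the members' levels was not tested.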

How the data were processed

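RNA of AT2 cells was sequenced as 150-base read pairs in 6 libraries, 3 per age. The counts were made by the authors and deposited as whole numbers with no normalization. HISAT2, featureCounts, DESeq2 and the build GRCm39 are listed in the submitters' processing notes. Versions, the annotation release, the strand setting and the handling of reads with several matches are not given in the sources used here. The deposited FPKM values of the same table were used only to compare levels between genes. A gene length for each row was derived from the counts, the library totals and the FPKM values, and was rounded to a whole number.

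Counts were analysed in R 4.3.3 with edgeR 4.0.16 (filterByExpr, TMM, quasi-likelihood test with its default prior count), and 14899 of 24224 genes were tested. A count of 1 was added only where log2 CPM of single genes was taken, for log-scale spreads and profile distances. Calls needed a log2 fold change above 1 in size and, after Benjamini-Hochberg adjustment, a p under 0.05. Standard errors were derived from the fold change and its F statistic. The p-values measure the spread between pools of mice. DESeq2 1.42.0, limma 3.58.1, other scaling and filters, a replicate block and leaving out each library were the alternatives, and the DESeq2 fits with a library left out were chosen after seeing the data. The code was tested on simulated data.

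The members and lists were chosen with earlier results of these data known. The text names all 10 members, up to 4 genes of each list with the smallest edgeR p, *B2m*, *H2-D1*, *H2-K1*, *Nlrc5*, sort markers, and the genes of nearest profile. Of the sort markers, those for MHCII are given only within a sum and within counts and a median over the list. *Sftpc* is outside this rule and was picked with its values in view. The other AT2 markers are given only within counts and a median over their list. Protein identity was planned and was not run, as no protein table was used; shared 150-base windows stood in for it. Promoter coordinates are those of GRCm38.p6, and no coordinates of GRCm39 are given.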

Additional observations from a re-analysis of the deposited data

How the results depend on the processing

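All 9 members tested had a positive log2 fold change under every alternative. With edgeR and all libraries, 0 members were called. Against this, DESeq2 called 5, edgeR without a filter on low counts called 5 with 0.739% of all 24224 genes higher at 24 m, and a limit of 0.1 on the adjusted p called 1, *H2-Q5*. Leaving out each library gave 0 to 4 calls with edgeR, the 4 without 3 m replicate 2, and 3 to 6 with DESeq2, whose fits then called 0.281% to 2.91% of all genes higher at 24 m. limma-voom, RLE size factors, library totals, a stricter filter and an adjusted p under 0.05 alone gave 0. Same-numbered libraries did not deviate together (correlations of 0.01, -0.04 and -0.08), so the numbers were not taken as pairs, and the fit with a replicate block called 0 members with a smallest adjusted p of 0.0859. The match count of the X2 core among 8 member promoters was 2, and 1 with the bases before the start alone. With 3 libraries per age and 0 to 37 counts per 3 m library, the fold changes of *H2-Q6* and *H2-Q10* are the least certain of those tested. Which member a shared read was counted for could not be examined from the table.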
